A study of Mus musculus with 27 samples.

Results

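The genes described here are 9 mouse genes for inhibitory or immunoregulatory receptors of myeloid cells: Cd72, Pirb, Lilrb4a, Lair1, Cd300a, Cd300lf, Siglece, Sirpa and Cd200r1. They are 9 of the 55487 rows of the deposited gene count table. Cd72 was picked because it had been among the genes most strongly up-regulated in hippocampi exposed to α-IgLON5#1. The other 8 were picked by receptor family, with earlier results of these data known. The hippocampal comparisons with α-IgLON5#1 are therefore given below as a description without p-values, and the tests are those of the cortex, of the control antibody and of tissue.

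RNA was sequenced from bulk brain tissue of 14 male wild-type C57Bl/6J mice, 8 weeks of age, which had received an infusion into the right lateral ventricle for 14 days at 0.25 µl per h from an osmotic pump. The infusate was PBS, a control IgG (pCtrl) or α-IgLON5#1, which are IgLON5-specific antibodies purified from the plasma of a patient with anti-IgLON5 disease. The cortex and the hippocampus of the contralateral (left) side were taken, giving 5 PBS, 5 pCtrl and 4 α-IgLON5#1 libraries of cortex and 5, 4 and 4 libraries of hippocampus, 27 in all. The sample descriptions call the control a human monoclonal IgG whereas the methods describe purified serum IgG of healthy donors, so its exact nature was taken from neither. The cortical and the hippocampal libraries of a treatment come from the same mice, and their results are not independent of each other. Libraries held 19385642 to 58550621 counts in genes. The descriptions name neurons as the cell type, but the tissue was not sorted, and the 10 neuronal marker genes and the 10 microglial marker genes examined had counts in every library. In bulk tissue, more cells of a type and more RNA per cell cannot be told apart.

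Receptors of this class set the threshold at which microglia, macrophages, granulocytes and B cells respond. Most carry immunoreceptor tyrosine-based inhibitory motifs (ITIMs) in the cytoplasmic tail. Src family kinases phosphorylate the tyrosine, and the phosphorylated motif recruits the phosphatases SHP-1 (Ptpn6), SHP-2 (Ptpn11) or SHIP-1 (Inpp5d), which damp signals from activating receptors that couple to ITAM adaptors such as Fcer1g and Tyrobp. Cd72 is a C-type lectin-like receptor best known from B cells and binds the semaphorin Sema4d. Pirb binds MHC class I as well as the myelin proteins Nogo (Rtn4), Mag and Omg. Sirpa binds the "don't eat me" signal Cd47, Cd200r1 binds neuronal Cd200, Lair1 binds collagens, Siglece binds sialic acids, and Cd300a and Cd300lf bind phospholipids.

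The motif was looked for in the coding sequence of 1 transcript per gene (GENCODE M21, GRCm38), as codons for isoleucine, leucine, valine or serine, any residue, tyrosine, any pair of residues, and isoleucine, leucine or valine, on the cytoplasmic side of the most hydrophobic stretch. Pirb and Sirpa held 3 such motifs each, Cd72, Lilrb4a, Lair1, Cd300a and Cd300lf held 2 each, and Siglece held 1. Cd200r1 held 0, and its tail is known to signal through other tyrosines. The motifs of the receptors that rose in cortex are shown because they are the part by which the class is defined. They are printed 5′ to 3′ along the transcript with the tyrosine codon in capitals, and all lie in coding exons.
Cd72 tyrosine 7, chr4:43454498-43454515, minus strand: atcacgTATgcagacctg
Cd72 tyrosine 39, chr4:43454306-43454323, minus strand: ctcaccTACgagaatgtg
Siglece tyrosine 432, chr7:43651585-43651602, minus strand: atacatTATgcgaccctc
Pirb tyrosine 713, split by an intron, chr7:3713862-3714103, minus strand: agcctaTATgcttcagtg
Pirb tyrosine 794, chr7:3712786-3712803, minus strand: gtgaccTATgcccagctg
Pirb tyrosine 824, chr7:3712696-3712713, minus strand: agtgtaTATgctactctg
Lilrb4a tyrosine 300, chr10:51496021-51496038, plus strand: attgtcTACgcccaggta
Lilrb4a tyrosine 322, chr10:51496194-51496211, plus strand: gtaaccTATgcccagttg
Cd300lf tyrosine 234, chr11:115117648-115117665, minus strand: ctctgtTATgcagacctg
Cd300lf tyrosine 282, chr11:115117112-115117129, minus strand: gtttcaTATgccgctctg

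In the cortex of PBS mice the 9 receptors differed widely in level, here in CPM, the counts scaled to a common library size, per kb of exon. Sirpa, which neurons express as well as myeloid cells, was at 98.9 ± 6.30 CPM per kb (SD, n = 5). Lair1 followed at 1.40 ± 0.165, Siglece at 0.440 ± 0.108 and Cd300a at 0.343 ± 0.040. Pirb was at 0.164 ± 0.024, Cd200r1 at 0.154 ± 0.060, Cd72 at 0.113 ± 0.032, Lilrb4a at 0.053 ± 0.035 and Cd300lf at 0.020 ± 0.023 CPM per kb. From Siglece downwards, neighbours in this order differed by less than the larger SD of the pair except Cd300a and Pirb, and Cd72 and Lilrb4a. Cd72 was thus among the lowest receptors of PBS cortex. The control cortices, PBS and pCtrl together, held 8 to 19 counts of it per library.

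All 9 receptors passed the filter on low counts (at least 10 counts in at least 4 libraries). Of the 19 control libraries, 16 held 10 or more counts of Cd72, 14 of Cd200r1, 10 of Lilrb4a and 5 of Cd300lf, while all 8 α-IgLON5#1 libraries did for every receptor. The other 5 receptors held 10 or more in each of the 19.

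In cortex, exposure to α-IgLON5#1 raised 5 of the 9 receptors over pCtrl, each by more than 2-fold (edgeR quasi-likelihood test, Benjamini-Hochberg adjusted p under 0.05): Cd72, Siglece, Pirb, Lilrb4a and Cd300lf. Of all 20271 genes tested, 3.01% rose by this threshold and 2.14% also by more than 2-fold. No receptor fell, at an unadjusted p under 0.05 or with DESeq2 either. The median log2 fold change of the 9 was 2.28, that of all genes -0.01. The 4 exposed mice carry numbers between 8 and 17, and with controls restricted to the same numbers the 5 receptors kept log2 fold changes of 2.14 to 4.51 but 0 passed with edgeR, the adjusted p-values lying between 0.0608 and 0.15. The control mice run to higher numbers, and what the numbers stand for is not stated.

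Cd72 (ENSMUSG00000028459.11, chr4:43446462-43454628, minus strand) had the highest fold change of the receptors. Its level in the α-IgLON5#1 cortices was 12.4, 19.7, 2.52 and 3.39 CPM in mice 8, 9, 16 and 17. The pCtrl cortices held 0.25, 0.447, 0.456, 0.565 and 0.586 CPM, and the PBS cortices 0.275, 0.313, 0.336, 0.473 and 0.532 CPM. The lowest exposed cortex stood well above the highest control, while the exposed cortices spread widely among themselves. The log2 fold change over pCtrl was 4.37 ± 0.53 (SE, adjusted p = 1.19e-05) and over PBS 4.60 (adjusted p = 4.41e-06). Without mouse 9 it was 3.74 over pCtrl. Tesk1, which overlaps Cd72 on the other strand, was at 38.9 to 42.1 CPM in exposed and 38.0 to 44.5 CPM in pCtrl cortex.

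Siglece (ENSMUSG00000030474.9, chr7:43651070-43660161, minus strand), a sialic acid receptor of microglia and other myeloid cells, is known to recognise the sialic acid coat of neurons. It was at 6.30, 4.91, 2.88 and 3.16 CPM in the exposed cortices of mice 8, 9, 16 and 17. The pCtrl cortices held 0.597, 0.688, 0.865, 1.06 and 1.22 CPM, again without overlap. The log2 fold change was 2.28 ± 0.27 over pCtrl (adjusted p = 9.15e-06) and 2.40 over PBS (adjusted p = 2.88e-06).

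Pirb (ENSMUSG00000058818.13, chr7:3711409-3720391, minus strand), the paired immunoglobulin-like receptor B, was at 11.98, 2.78, 2.81 and 3.50 CPM in exposed cortices of mice 8, 9, 16 and 17. The 5 pCtrl cortices held 0.466 to 1.01 CPM and the 5 PBS cortices 0.605 to 0.845 CPM. Groups did not overlap, and mouse 8 stood far above the other 3 exposed mice. The log2 fold change was 2.93 ± 0.42 over pCtrl (adjusted p = 8.18e-05) and 2.84 over PBS (adjusted p = 6.66e-05). Without mouse 8 it was 2.14 over pCtrl (adjusted p = 0.000463).

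Lilrb4a (ENSMUSG00000112148.1, chr10:51490956-51496611, plus strand), a leukocyte immunoglobulin-like receptor of macrophages and mast cells, was likewise highest in mouse 8. Mice 8, 9, 16 and 17 held 8.51, 1.34, 0.905 and 1.13 CPM in cortex, against 0.0939, 0.213, 0.233, 0.281 and 0.283 CPM in pCtrl cortices and up to 0.599 CPM in PBS cortices. Every exposed cortex was above every control. The log2 fold change was 3.71 ± 0.66 over pCtrl (adjusted p = 0.000863) and 3.41 over PBS (adjusted p = 0.00115), the latter with an adjusted p of 0.0509 when only the groups compared were fitted. The SD over the 4 exposed cortices, 3.70 CPM, was larger than their mean of 2.97 CPM, and without mouse 8 the log2 fold change over pCtrl was 2.31 (adjusted p = 0.0174).

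Cd300lf (ENSMUSG00000047798.15, chr11:115116214-115133992, minus strand), a phospholipid receptor also known as Clm1, was the scarcest receptor in controls. It was at 3.94, 1.08, 0.571 and 0.771 CPM in mice 8, 9, 16 and 17, and at 0, 0.0665, 0.0706, 0.266 and 0.421 CPM in pCtrl cortices. The groups did not overlap. The log2 fold change was 3.37 ± 0.70 over pCtrl (adjusted p = 0.00388) and 3.88 over PBS (adjusted p = 0.00111). Without mouse 8 the log2 fold change over pCtrl was 2.39 and the adjusted p 0.0718, so the call rests on this mouse, and with only the groups compared in the fit the adjusted p was 0.0628.

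Pirb and Lilrb4a belong to families of near-identical neighbours, and part of their counts is uncertain. Of all stretches of 75 bases in the annotated Pirb transcripts, 26% also occur in transcripts of other genes, mainly Gm14548 (14%) and the activating receptor Pira2 (13.2%). For Lilrb4a the share was 39.8%, mainly with Gm49339 (32.2%) and Lilr4b (16.3%). Gm49339 is annotated across Lilrb4a itself on the same strand (chr10:51480612-51496613). Gm49339 had 0 counts in every library, but how reads in stretches annotated to both genes were counted is not stated. Counts of Lilrb4a may therefore be too low. Pira2 and Gm14548 had at most 8 and 6 counts in a library. Lilr4b was at 2.90 CPM in exposed and 0.173 CPM in pCtrl cortex. The share was at most 1.37% for the other 7 receptors, and 0 for Cd72, Siglece and Sirpa.

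**Figure D1:**
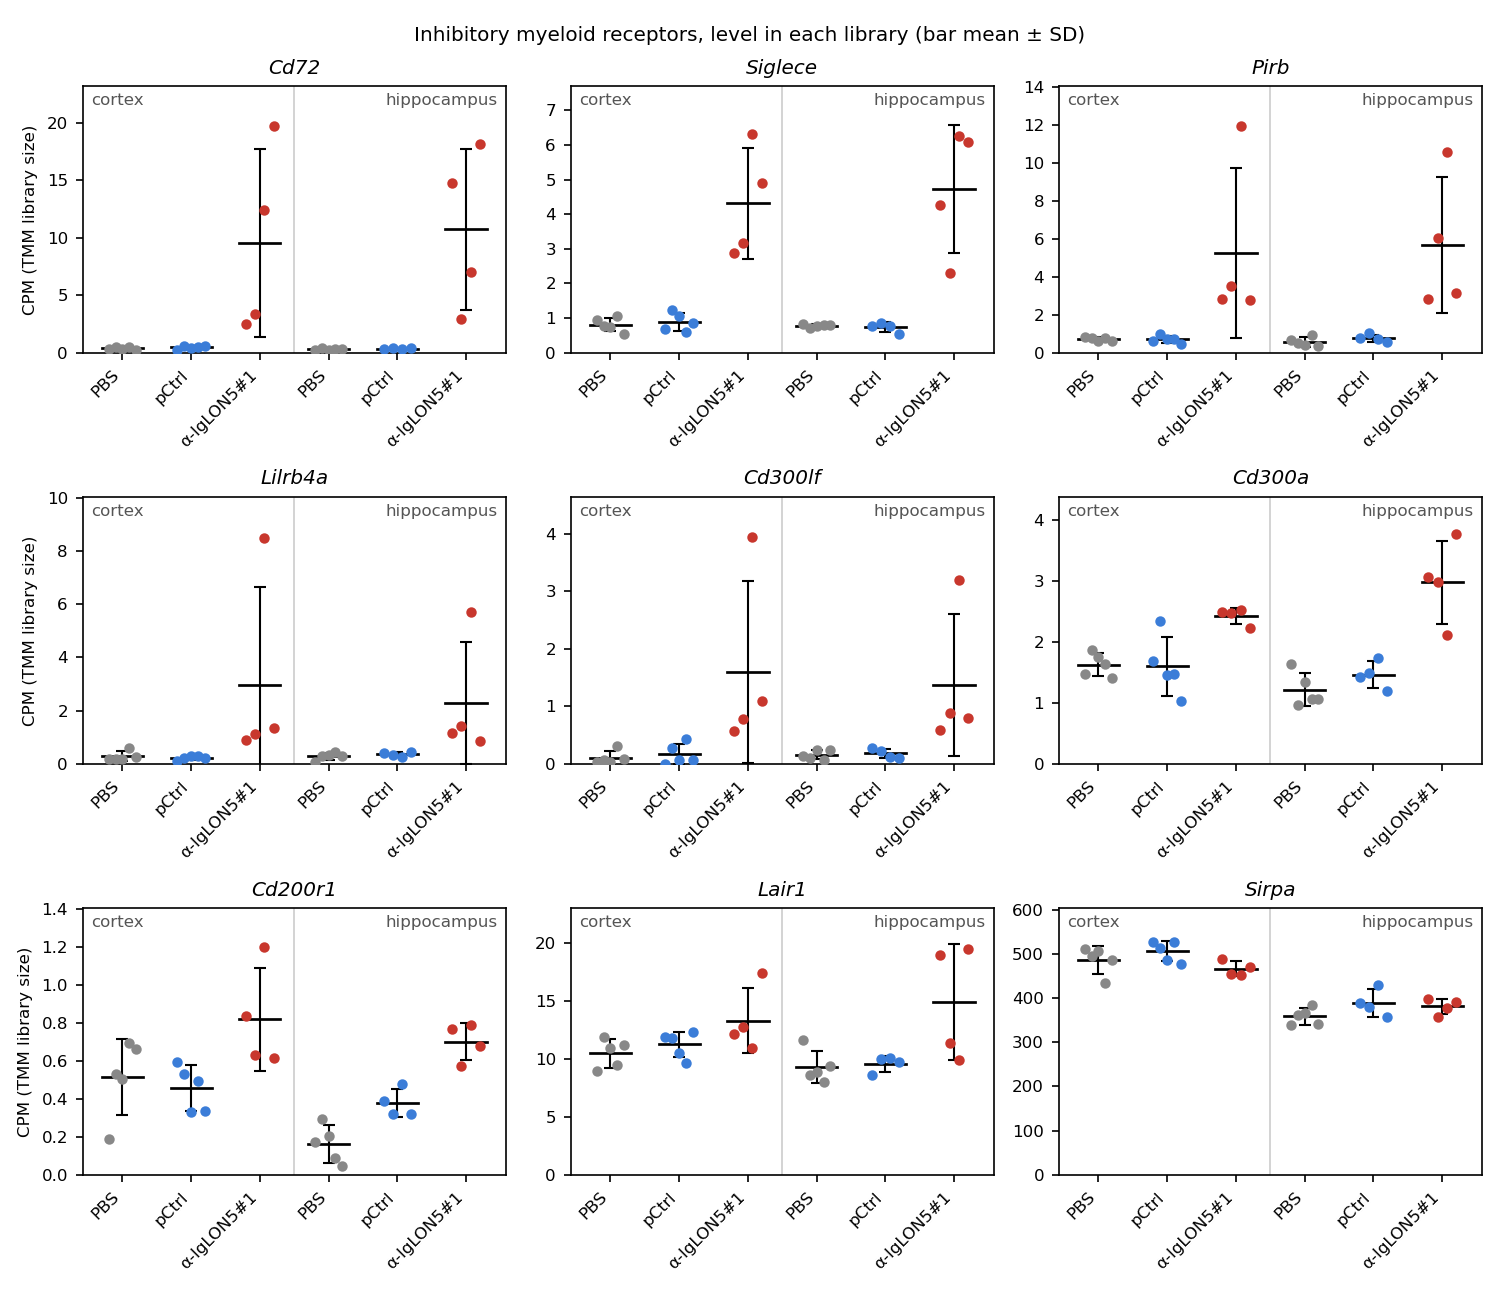
Level of each receptor in each of the 27 libraries, in CPM on a linear axis from 0, by treatment and tissue. Points are libraries, horizontal bars are group means and vertical bars SD, drawn down to 0 where they would cross it. The 4 α-IgLON5#1 libraries of each tissue lie above the controls for Cd72, Siglece, Pirb, Lilrb4a and Cd300lf, and among the controls for Sirpa.

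The remaining 4 receptors did not pass the test in cortex. Cd300a (ENSMUSG00000034652.12, chr11:114890041-114904654, plus strand) was at 2.53, 2.24, 2.50 and 2.47 CPM in exposed mice 8, 9, 16 and 17 and at 1.60 ± 0.479 CPM in pCtrl cortex (SD, n = 5), with 1 pCtrl cortex at 2.34 CPM. Its log2 fold change was 0.63 ± 0.18 over pCtrl (adjusted p = 0.0588) and 0.59 over PBS (adjusted p = 0.102). DESeq2 placed it past the threshold in both comparisons, with adjusted p = 0.0173 and 0.038.

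Cd200r1 (ENSMUSG00000022667.18, chr16:44765736-44794978, plus strand) was at 1.20, 0.613, 0.833 and 0.628 CPM in exposed cortices of mice 8, 9, 16 and 17. The pCtrl cortices held 0.33 to 0.595 CPM and did not overlap with them, but the PBS cortices reached 0.694 CPM. Its log2 fold change over pCtrl was 0.86 ± 0.32 (adjusted p = 0.171) with a 95% interval of 0.19 to 1.53. Together with the 5 receptors that passed, it makes 6 whose exposed cortices were all above all pCtrl cortices, as were 3.68% of all genes tested.

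Lair1 (ENSMUSG00000055541.17, chr7:4003402-4063204, minus strand), the collagen receptor, was at 10.9, 17.4, 12.1 and 12.7 CPM in exposed cortices and at 11.2 CPM on average in pCtrl cortex. Its log2 fold change was 0.24 ± 0.16 (adjusted p = 0.519), with a 95% interval from -0.10 to 0.58. Sirpa (ENSMUSG00000037902.18, chr2:129592835-129632228, plus strand) was at 451, 471, 489 and 454 CPM in exposed cortices and at 477 to 527 CPM in pCtrl cortices. Its log2 fold change was -0.12 ± 0.06 (adjusted p = 0.33), with a 95% interval from -0.24 to 0.002. For both genes, changes of 2-fold in bulk cortex lie outside the interval. Neurons express Sirpa as well, and its level in myeloid cells alone was not measured.

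Against PBS, which shares the 4 exposed libraries with the comparison above, the same 5 receptors passed in cortex, with the exception given above for Lilrb4a, beside 2.97% of all genes that rose. The control antibody itself was compared with PBS to show what an infused IgG does alone. In cortex 0 of the 9 receptors passed this test with edgeR, 0 at an unadjusted p under 0.05 and 0 with DESeq2, and of all genes tested 0% passed. Their log2 fold changes lay between -0.30 and 0.51. In hippocampus 0 of the 9 passed with edgeR and 0 with DESeq2, where 0.192% of all genes passed the adjusted threshold. At an unadjusted p under 0.05 with edgeR, 1 of the 9 passed, as did 2828 of all 20271 genes tested. That receptor was Cd200r1, at 0.319, 0.32, 0.388 and 0.476 CPM in pCtrl hippocampi and at 0.0471 to 0.295 CPM in PBS hippocampi. The groups did not overlap, as in 1.87% of all genes tested in this direction. Its log2 fold change was 1.14 ± 0.37 (adjusted p = 0.135), so that a difference between pCtrl and PBS did not hold up over all genes. The pCtrl hippocampi also differed in tissue composition, scored as the mean log2 CPM of the 100 genes most specific to cortex minus that of the 100 most specific to hippocampus in PBS mice. The score was 0.79 in pCtrl mouse 37, 0.11 in mouse 10, -0.77 in mouse 75 and -0.90 in mouse 15, against -1.80 to -0.95 in PBS hippocampi and -1.83 to -0.82 in exposed hippocampi. Mice 37 and 10 were also the highest in Cd200r1. With the score as a covariate the log2 fold change of Cd200r1 was 0.91 (adjusted p = 0.951), and the part of composition in the difference was not tested further.

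In hippocampus, the tissue in which Cd72 had been picked, the levels are given without tests. Cd72 was at 7.04, 18.1, 14.8 and 2.89 CPM in mice 8, 9, 16 and 17, at 0.286 to 0.393 CPM in the 4 pCtrl hippocampi and at 0.205 to 0.394 CPM in the 5 PBS hippocampi. The exposed and control ranges were far apart. The log2 fold change was 4.95 ± 0.58 over pCtrl and 5.05 over PBS.

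Siglece was at 6.25, 6.08, 4.26 and 2.29 CPM in these hippocampi and at 0.540 to 0.865 CPM in the pCtrl hippocampi. Pirb was at 10.6, 3.15, 2.85 and 6.07 CPM, against 0.540 to 1.02 CPM. Lilrb4a was at 5.71, 0.845, 1.16 and 1.43 CPM, against 0.238 to 0.442 CPM. For each of these the exposed hippocampi stood above the controls, and for Pirb and Lilrb4a mouse 8 was again the highest.

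Cd300lf was at 3.20, 0.789, 0.582 and 0.888 CPM in mice 8, 9, 16 and 17, with pCtrl hippocampi at 0.0982 to 0.266 CPM. Cd300a was at 2.12, 3.77, 3.06 and 2.98 CPM, with pCtrl hippocampi at 1.20 to 1.74 CPM. Lair1 was at 9.89, 19.5, 18.9 and 11.3 CPM, with a pCtrl mean of 9.56 CPM. Cd300lf and Cd300a did not overlap with pCtrl, and mouse 8, the highest for Cd300lf, was the lowest for Cd300a and Lair1.

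The log2 fold changes over pCtrl were 2.65 ± 0.29 for Siglece, 2.88 ± 0.44 for Pirb, 2.66 ± 0.66 for Lilrb4a, 2.85 ± 0.70 for Cd300lf, 1.02 ± 0.20 for Cd300a, 0.64 ± 0.17 for Lair1, 0.89 ± 0.35 for Cd200r1 and -0.03 ± 0.06 for Sirpa. Without mouse 8 they were 2.41 for Pirb, 1.72 for Lilrb4a and 2.03 for Cd300lf. By the threshold applied in cortex 7 of the 9 receptors would be called higher than pCtrl and 8 higher than PBS, beside 4.23% and 3.81% of all genes tested. The count against pCtrl was 4 with the composition score as a covariate, where the log2 fold change of Cd72 was 4.21, and 4 without pCtrl mouse 37. It was 1 with only mice 8 to 17. These counts hold the comparison that picked Cd72 and are no evidence of their own. Sirpa was the receptor left out of both.

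**Figure D2:**
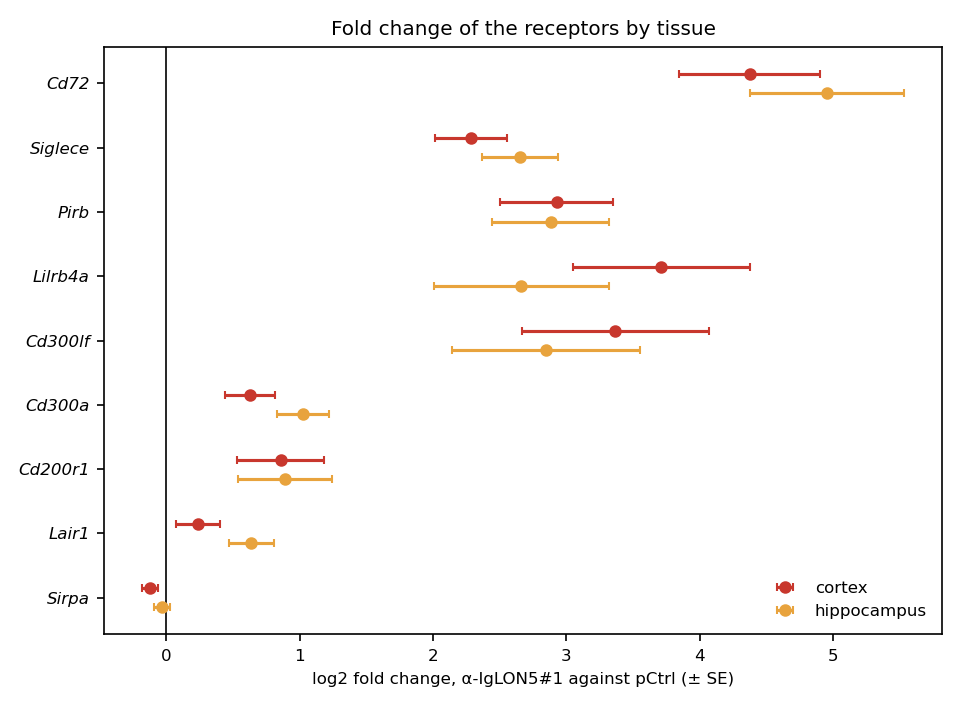
Log2 fold change of the 9 receptors between α-IgLON5#1 and pCtrl, with SE, in cortex and hippocampus. Cd72 is highest in both tissues (4.37 and 4.95), Siglece, Pirb, Lilrb4a and Cd300lf lie between 2.28 and 3.71, and Sirpa lies next to 0. The hippocampal points are a description without a test.

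Whether the response differed between tissues was examined as the cortical minus the hippocampal log2 fold change over pCtrl, of which the hippocampal part was known beforehand for Cd72. With edgeR 0 of the 9 receptors passed, 0 at an unadjusted p under 0.05 and 0 with DESeq2, and 0% of all genes tested passed. The differences ran from -0.58 for Cd72 (95% interval from -2.22 to 1.06) to 1.05 for Lilrb4a (from -0.94 to 3.04). The smallest adjusted p was 0.566, for Lair1, with a difference of -0.40. Intervals of this width cannot show that the tissues respond alike.

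The 2 tissues of PBS-infused mice did differ for some receptors. In PBS mice 2 of the 9 were higher in cortex than in hippocampus by the same threshold, as were 14.1% of all genes tested. Sirpa was 0.44 ± 0.05 higher on the log2 scale (adjusted p = 8.58e-07), at 433 to 510 CPM in cortex and 338 to 385 CPM in hippocampus. Cd200r1 was 1.60 ± 0.35 higher (adjusted p = 0.00111), at 0.516 CPM against 0.161 CPM on average. Cd300a had a log2 difference of 0.43 (adjusted p = 0.0816).

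The 4 exposed mice did not carry the receptors in equal measure, and the receptors split by which mouse was highest. Mouse 9 held the most Cd72 in both tissues, 42.8 times the pCtrl mean in cortex, and also the most Lair1 in both. Mouse 8 held the most Pirb, Lilrb4a and Cd300lf in both tissues, and the most Siglece. In mouse 16, Cd72 was the lowest of the 4 in cortex (2.52 CPM) and the second highest in hippocampus (14.8 CPM). With 4 mice these orders are a description.

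**Figure D3:**
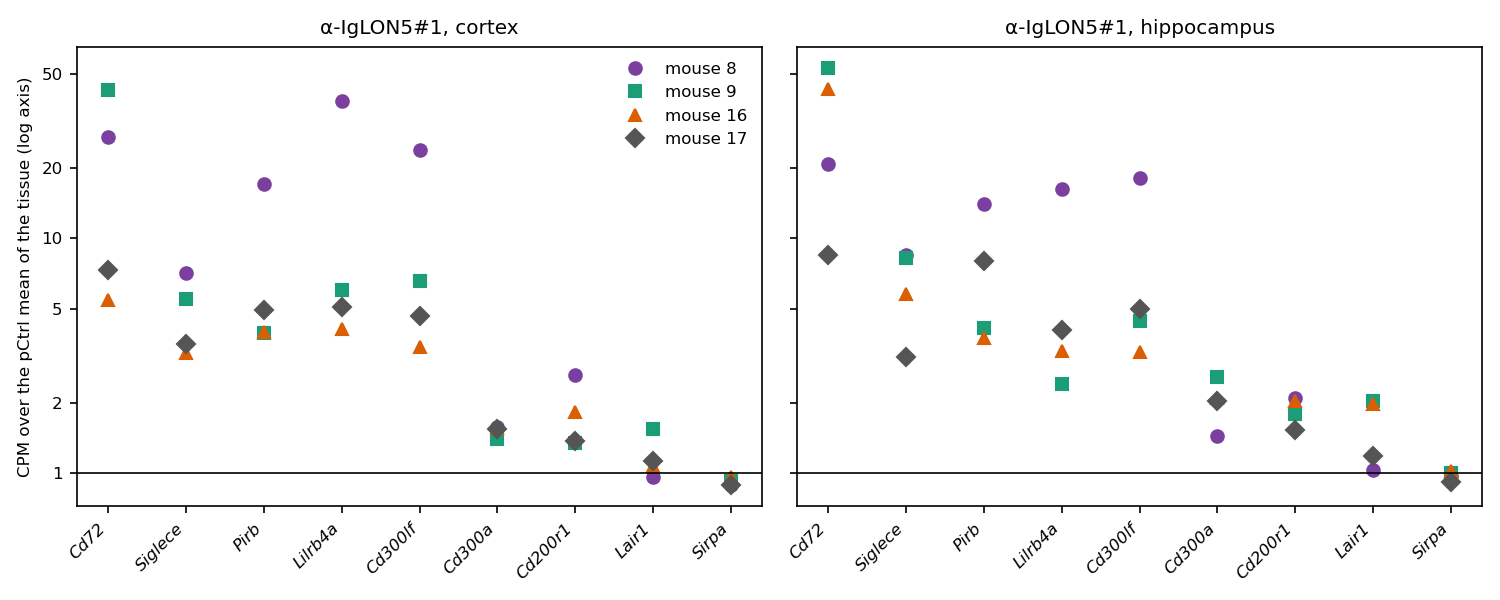
Level of each receptor in each α-IgLON5#1 mouse as a ratio to the pCtrl mean of the same tissue, on a log axis, with 1 symbol per mouse and the line at 1 marking the pCtrl mean. Mouse 9 is highest for Cd72 in both tissues, mouse 8 for Pirb, Lilrb4a and Cd300lf, and all 4 mice lie close to 1 for Sirpa.

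The markers of the cells that carry these receptors moved to different extents. Some scarce genes of these lists reached 10 counts in fewer than 4 control libraries and passed the filter only with the exposed libraries counted. Their tests favour a rise where the libraries with 10 counts were mainly exposed ones. A few reached 10 counts in no more exposed than control libraries. The scarce genes were 5 of 8 tested monocyte genes, 3 of 7 B cell genes, 2 of 6 T cell genes, 1 gene each of the plasma cell, neutrophil and dendritic cell lists, 4 of 8 activating partners, 4 of 22 other inhibitory receptors and 1 of 10 adaptors and kinases. The counts of genes that rose include them, and those named are given by their levels alone. Of 10 microglial markers, 0 rose in cortex with edgeR, while 3 were higher and 3 lower at an unadjusted p under 0.05 and 1 was higher and 1 lower with DESeq2. With edgeR 1 fell, the fructose transporter gene Slc2a5 (-0.84 ± 0.17 on the log2 scale, adjusted p = 0.00219). Their summed level was 425 to 465 CPM in exposed and 356 to 439 CPM in pCtrl cortex. Taken per summed microglial level, Cd72 was 2.15 ± 1.83% in exposed cortex (SD, n = 4) and 0.116% in pCtrl cortex, while Lair1 was 2.96% and 2.83%. In hippocampus 5 of the 10 markers were higher and 1 lower, and the sum was 444 to 745 CPM against 355 to 402 CPM. Mice 9 and 16, the highest in hippocampal Cd72 and Lair1, also had the highest sums (745 and 601 CPM).

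Monocyte markers rose in cortex for 6 of 8 genes, beside 3.01% of all genes tested. Among them was the chemokine receptor gene Ccr2 (from 0.912 to 5.61 CPM on average, adjusted p = 0.00872). Ly6c2 (from 0.0449 to 1.24 CPM), Ms4a4c (from 0.0388 to 1.88 CPM) and Plac8 (from 0.232 to 2.61 CPM) also rose. These belong to the scarce genes whose tests favour a rise. Plac8 had an SD of 3.90 CPM over the 4 exposed cortices. The summed level of the 8 was 83.6 to 319 CPM in exposed cortex and 135 to 176 CPM in pCtrl cortex. By mouse, cortical Ly6c2 was at 2.80, 1.26, 0.21 and 0.70 CPM in mice 8, 9, 16 and 17, Ms4a4c at 5.22, 1.52, 0.238 and 0.556 CPM, and Ccr2 at 14.1, 3.36, 1.93 and 3.07 CPM. Mouse 8, the highest in Pirb, Lilrb4a and Cd300lf, was thus also the highest in these 3 genes. The part of monocytes in the receptor levels was not tested.

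B cell markers rose for 4 of 7 tested genes, beside 3.01% of all genes tested. Cd79b rose by 2.15 ± 0.42 on the log2 scale (adjusted p = 0.00197) and Cd22 by 2.12 ± 0.47 (adjusted p = 0.00719). Spib (from 0.124 to 0.868 CPM) and Ms4a1 (from 0.0276 to 0.553 CPM) are among the scarce genes whose tests favour a rise. Cd72 is itself a B cell gene and was kept out of this list. The summed level was 3.43 to 10.5 CPM in exposed and 1.33 to 1.60 CPM in pCtrl cortex, and 4.73 to 11.9 against 1.17 to 1.97 CPM in hippocampus, so that the groups did not overlap. Mouse 9, with the most Cd72, had the lowest sum in hippocampus and the second lowest in cortex (3.97 CPM), and its count of Ms4a1, which encodes CD20, was 0 in both tissues. The markers did not share 1 order of mice. In the cortices of mice 8, 9, 16 and 17, Spib was at 1.68, 1.23, 0.238 and 0.323 CPM and Cd22 at 1.55, 1.01, 0.857 and 1.13 CPM, and in hippocampus Spib was at 1.38, 0.732, 1.87 and 0.974 CPM. In mouse 9 Spib was thus the second highest in cortex and the lowest in hippocampus, where 2 of the B cell genes had no count. The part of B cells in the level of Cd72 was not tested.

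Of the remaining marker lists, 1 of 7 plasma cell genes rose in cortex, Jchain (5.23 ± 0.61, adjusted p = 9.05e-06), and of 6 T cell genes 1 passed, Cd3g (from 0.0262 to 0.322 CPM), which is one of the scarce genes whose test favours a rise. Among neutrophil genes 1 of 6 rose, Csf3r (1.18 ± 0.16, adjusted p = 4.41e-05), which microglia also express, and the defining neutrophil gene Ly6g had 0 counts in all 4 exposed cortices and also in 4 of 5 PBS and 4 of 5 pCtrl cortices. S100a8, another gene of that list, was at 3.97 CPM in the cortex of mouse 8, at 0.119 to 0.448 CPM in the other 3 exposed cortices and at most at 1.01 CPM in control cortices. Border macrophage genes moved both ways, with Ms4a7 rising (1.97 ± 0.35, adjusted p = 0.00082) and Lyve1 falling (-1.35 ± 0.28, adjusted p = 0.00425) among 9. The dendritic cell list had 1 of 7 higher, Itgae (1.08 ± 0.30, adjusted p = 0.0391), and 0 with DESeq2. Of 10 neuronal genes 0 passed in cortex with edgeR, 2 were lower at an unadjusted p under 0.05 and 1 with DESeq2. Of 8 cortical region markers 1 fell, Rorb (-0.51 ± 0.13, adjusted p = 0.0229), and of 8 hippocampal region markers 0 passed with edgeR, 1 at an unadjusted p under 0.05 and 0 with DESeq2. How far these cells carried the receptors was not tested.

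Among the ligands of the receptors, those of the MHC class I family rose. In cortex 3 of 15 tested ligand genes rose, beside 3.01% of all genes tested, with a median log2 fold change of -0.002. The 3 were the MHC class I genes B2m (1.02 ± 0.11, adjusted p = 3.64e-06), H2-K1 (1.53 ± 0.18, adjusted p = 1.1e-05) and H2-D1 (1.09 ± 0.13, adjusted p = 1.1e-05), which encode ligands of Pirb. H2-K1 stood at 65.6 ± 22.6 CPM in exposed and 22.6 ± 3.81 CPM in pCtrl cortex (SD, n = 4 and 5). Among the myelin ligands of Pirb, the log2 fold changes were -0.11 for Rtn4, -0.08 for Mag and -0.16 for Omg, none past the threshold. The Cd72 ligand Sema4d was at 64.5 ± 1.37 and 66.2 ± 5.96 CPM (log2 fold change -0.04 ± 0.07, adjusted p = 0.851). Cd47, the ligand of Sirpa, and Cd200, that of Cd200r1, had log2 fold changes of -0.10 (adjusted p = 0.454) and 0.06 (adjusted p = 0.861).

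Several inhibitory receptors have activating relatives of similar structure, here called partners, and only some of these bind overlapping ligands. Of 8 tested partners 4 rose in cortex, beside 3.01% of all genes tested. Cd300c2 rose by 0.68 ± 0.16 on the log2 scale (adjusted p = 0.0153) and Lilra5 by 1.23 ± 0.33 (adjusted p = 0.0339). Sirpb1c, a relative of Sirpa (from 0.00471 to 0.457 CPM), and Lilr4b (from 0.173 to 2.90 CPM) are among the scarce genes whose tests favour a rise. Lilr4b shares sequence with Lilrb4a, as given above, and varied as widely, from 0.238 to 9.29 CPM over the exposed cortices. Cd300c2 was at 5.27 ± 0.679 CPM in exposed and 3.33 ± 0.691 CPM in pCtrl cortex.

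Some other inhibitory receptors rose as well. Of 22 tested, 11 rose in cortex, beside 3.01% of all genes tested, with a median log2 fold change of 1.28. Of the 22, 4 were scarce genes that passed the filter only with the exposed libraries counted. The lowest adjusted p-values belonged to the C-type lectin receptors Clec4a3 (1.92 ± 0.25, adjusted p = 3.14e-05) and Clec12a (3.04 ± 0.44, adjusted p = 7.49e-05), to Milr1 (3.48 ± 0.54, adjusted p = 0.000186), also called Allergin-1, and to Clec4a2 (1.82 ± 0.30, adjusted p = 0.000368). Cd22 is held by this list and by the B cell list.

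On the cytoplasmic side, 6 of 10 adaptors and kinases rose in cortex, beside 3.01% of all genes tested. These included Fcer1g, the common ITAM chain (1.73 ± 0.25, adjusted p = 7.49e-05), the Src family kinase Lyn (1.17 ± 0.19, adjusted p = 0.000261), and Syk (1.21 ± 0.20, adjusted p = 0.00029). Of 11 phosphatases and docking proteins 3 rose. They were Fyb (1.90 ± 0.18, adjusted p = 2.64e-06), Ptpn6 (1.81 ± 0.21, adjusted p = 9.15e-06) and Skap2 (0.51 ± 0.14, adjusted p = 0.0296). Ptpn6, encoding SHP-1, stood at 12.3 ± 4.44 CPM in exposed and 3.48 ± 0.331 CPM in pCtrl cortex. Ptpn11, encoding the ubiquitous SHP-2, had a log2 fold change of -0.08 (adjusted p = 0.367), and Inpp5d, encoding SHIP-1, one of 0.35 (adjusted p = 0.123).

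**Figure D4:**
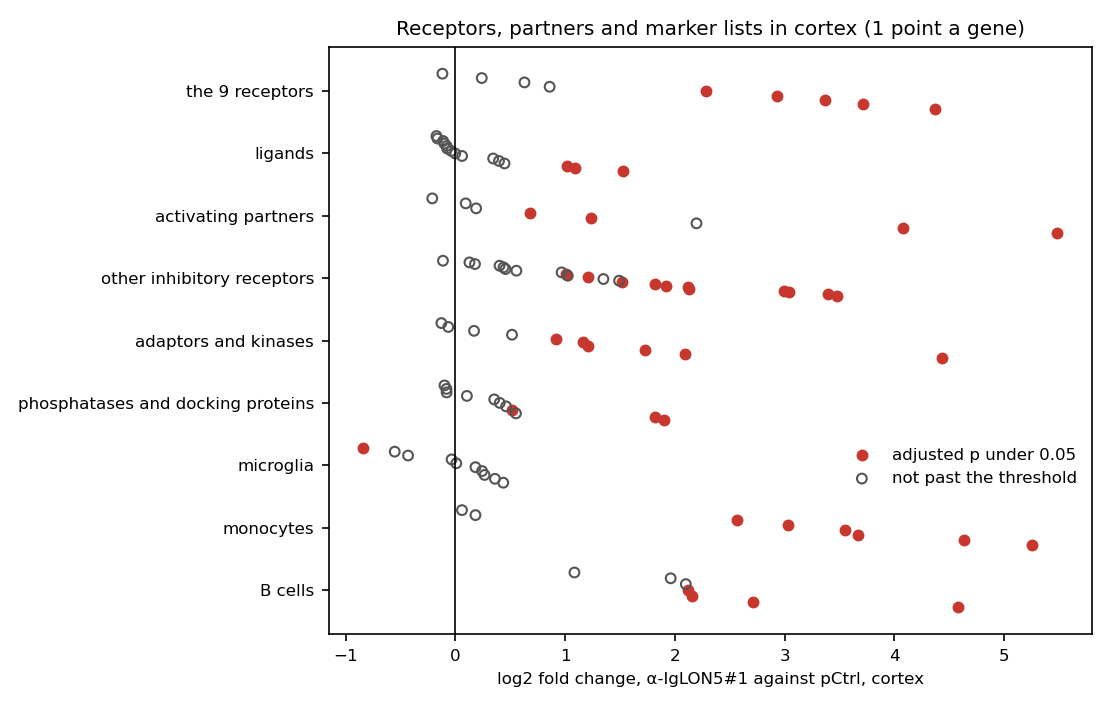
Log2 fold change between α-IgLON5#1 and pCtrl in cortex for the 9 receptors, for their ligands and partners and for 3 marker lists, with 1 point per gene. Filled points passed an adjusted p of 0.05 in the edgeR test, and open points did not. Ligands cluster at 0 apart from 3 MHC class I genes, and the 5 receptors that passed lie between 2.28 and 4.37.

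In hippocampus the same lists, as a description, had 5 ligands higher and 1 lower, 3 activating partners, 16 further inhibitory receptors, 6 adaptors and kinases and 4 phosphatases and docking proteins higher than in pCtrl by the same threshold. Among markers, 6 B cell, 4 plasma cell, 2 monocyte, 1 T cell and 1 neutrophil gene were higher, 1 border macrophage gene was higher and 1 lower, 2 neuronal and 2 cortical genes were lower, and of the dendritic cell and hippocampal region genes 0 passed with edgeR or DESeq2 and 2 of each were higher at an unadjusted p under 0.05.

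The genes whose log2 CPM followed each receptor most closely over the 27 libraries were listed as a description, since the libraries share treatment groups. For Cd72 they were Adgre1, encoding the macrophage antigen F4/80 (Pearson r = 0.984), the leukocyte migration gene Dock2 (r = 0.980) and the haematopoietic GTPase Rac2 (r = 0.977). The same 3 genes led after group means were subtracted, with r of 0.882, 0.861 and 0.891. Cortical Adgre1 was at 44.2, 62.8, 17.3 and 25.7 CPM in exposed mice 8, 9, 16 and 17, in the same order of mice as Cd72.

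For Siglece the closest genes were Fyb (r = 0.973), the transcription factor gene Irf8 (r = 0.971) and Vav1 (r = 0.970). For Pirb they were Ighv1-78 (r = 0.958), the lysozyme gene Lyz2 (r = 0.950) and Myo1g (r = 0.949), and within groups the calprotectin genes S100a8 (r = 0.898) and S100a9 (r = 0.888) with Tubb6 (r = 0.895). Lilrb4a went with H2-Q4 (r = 0.945), Fgr (r = 0.943) and Irgm2 (r = 0.930), and Cd300lf with Casp4 (r = 0.915), Ikbke (r = 0.891) and Lilrb4a (r = 0.890). No gene was among the closest 3 of more than 1 of the 5 receptors that rose.

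The receptors that did not pass in cortex went with other genes. Lair1 followed Inpp5d (r = 0.888) and Iqgap3 (r = 0.857). Cd300a followed Mpeg1 (r = 0.901), Cd300c2 (r = 0.887) and Ctss (r = 0.872), and Cd200r1 followed Prcp (r = 0.816), P2rx4 (r = 0.809) and Ctsl (r = 0.789). Sirpa stood apart, with Cpne5 (r = 0.976), Ttl (r = 0.975) and Stx1a (r = 0.975), the last a presynaptic gene.

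The promoters of the receptors were searched for GAGGAAGT, a core site of the myeloid and B cell factor PU.1, on both strands of the 250 bases before the annotated start (RefSeq, GRCm38.p6). A promoter was found for 6 of the 9 genes, Lilrb4a, Sirpa and Cd200r1 being without one. The letters occurred in Cd72 and Pirb, and in 802 of 32851 promoters of the same length (2.44%). The 30 bases around each match are shown with the match in capitals, which in Cd72 reads on the other strand 49 bases before the start and in Pirb on the same strand 120 bases before it.
Cd72 promoter, chr4:43454657-43454686, minus strand: gccaaagacctACTTCCTCttttatgactt
Pirb promoter, chr7:3720484-3720513, minus strand: gtcacaccattGAGGAAGTcagagcatggt
A match is a description of the sequence, and binding was not measured.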

How the data were processed

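Poly(A) RNA of 27 libraries was made into stranded libraries (TruSeq Stranded mRNA) and sequenced as paired ends on an Illumina NovaSeq. The authors aligned reads to GRCm38 with STAR at default settings and deposited raw read counts per gene for all libraries in 1 table. The counting program, its annotation and its strand setting are not given in the sources used here. Identifiers were matched to GENCODE M21 (55141 of 55487 rows). A strand error or reads shared between related genes would change counts of overlapping genes and paralogs.

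Counts were scaled by TMM and fitted with edgeR 4.0.16 (R 4.3.3) by the quasi-likelihood test in 1 model of 6 groups, after removal of genes that did not reach 10 counts in 4 or more libraries (20271 genes kept). CPM use TMM-scaled library sizes. P-values were adjusted by the Benjamini-Hochberg method over all genes tested, with a threshold of 0.05. SE was the log2 fold change divided by the square root of F. DESeq2 1.42.0, other filters, restricted sets of libraries, a covariate of tissue composition and blocking by mouse were alternatives. The procedure was tested on simulated data.

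The 9 receptors and all gene lists (ligands, activating partners, other inhibitory receptors, adaptors and kinases, phosphatases and docking proteins, and markers of microglia, B cells, plasma cells, T cells, neutrophils, monocytes, border macrophages, dendritic cells, neurons, hippocampus and cortex) were chosen with earlier results of these data known. Named from each list were at most 4 genes with the smallest adjusted p among those that passed in cortex, plus direct ligands and partners. For likeness, the 3 genes with the highest Pearson r of log2 CPM (prior count 1) over the 27 libraries were named. Some genes that these rules select are not reported here.

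Libraries of a group came from separate mice, and no pair of libraries within a group agreed within sampling noise (chi-square per degree of freedom at least 4.44 over 48 pairs). Cortex and hippocampus were from the same animal in 13 of the 14 mice. The correlation of their deviations from group means was -0.05 to 0.44, with a median of 0.19, and 8 of the 13 were above 0.1. Depth was 19385642 to 58550621 counts per library. Receptors below 1 CPM thus rest on few counts per library, whose counting error adds to the spread between mice.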

Additional observations from a re-analysis of the deposited data

Results flagged for a closer look

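In 54 combinations of receptor and group, 7 had 1 library far from the rest of its group, by the gap to the nearest library relative to the range of the group (Dixon's criterion at the 95% level, which chance alone exceeds in roughly 5% of groups). Of these, 5 were mouse 8 of the α-IgLON5#1 group. In its cortex, Pirb was at 11.98 CPM (next library 3.50 CPM), Lilrb4a at 8.51 CPM (next 1.34 CPM) and Cd300lf at 3.94 CPM (next 1.08 CPM). In its hippocampus, Lilrb4a was at 5.71 CPM (next 1.43 CPM) and Cd300lf at 3.20 CPM (next 0.888 CPM). The remaining pair was the cortex of PBS mouse 38, with Lilrb4a at 0.599 CPM (next 0.247 CPM) and Cd300lf at 0.315 CPM (next 0.0825 CPM). Mouse 38 was still below every exposed cortex for both genes. The cause of these values was not tested.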

How the results depend on the processing

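No receptor or count of receptors turned its direction past a threshold under any alternative. Requiring at least 10 counts in every library left 5 receptors testable, of which 3 passed in cortex against pCtrl, 2 in cortex against PBS, 4 in hippocampus against pCtrl, 4 in hippocampus against PBS and 1 between tissues of PBS mice, lower by construction. With only mice 8 to 17, the numbers of the exposed mice, which leaves fewer controls, 0 receptors passed with edgeR in cortex against pCtrl and 1 in hippocampus. In that cortical fit, log2 fold changes were 4.51 for Cd72 (adjusted p = 0.0711), 2.14 for Siglece (0.0608), 2.82 for Pirb (0.0982), 3.87 for Lilrb4a (0.15) and 4.10 for Cd300lf (0.14). With tissue composition as a covariate, 4 receptors passed in hippocampus against pCtrl; the cause was not tested. Leaving out 1 library at a time gave 4 to 6 receptors in cortex against pCtrl, 5 to 5 against PBS, 4 to 7 and 6 to 8 in hippocampus, where 4 came without pCtrl mouse 37, 2 to 3 between tissues, and 0 for pCtrl against PBS and for the difference between tissues. Cd300a passed in cortex without pCtrl mouse 11 (adjusted p = 0.0118). Fitting only the groups compared moved Cd300lf in cortex against pCtrl to an adjusted p of 0.0628 and Lilrb4a against PBS to 0.0509. With mouse as a block, the pairing left 0 receptors for the difference between tissues and 2 between tissues of PBS mice, as without it, and changed no call. Low counts limit Cd300lf, Lilrb4a and Cd200r1 most.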
